A study of Homo sapiens with 4 samples.

Results

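ATP-binding cassette (ABC) transporters were compared between U118-MG glioma cells that overexpress SPNS2 and cells with a control vector. The members were all rows of the count table whose symbol is ABC, a subfamily letter from A to G and a number, which gave 46 genes of 61806. They were divided by known role into 17 lipid exporters, 10 multidrug pumps and 19 others, the last holding mitochondrial, peroxisomal and lysosomal carriers, potassium channel subunits and ATPases that do not span a membrane. U118-MG is an established human glioma line, labelled wild type. The SPNS2 group (2 libraries) was infected with a lentiviral pCDH vector carrying SPNS2, and the NC group (2 libraries) with the negative control vector, both with a CMV promoter. Both were grown in DMEM with fetal bovine serum, and RNA was taken with Trizol. The labels do not say whether the infected cells are a pool or a clone, nor whether libraries sharing a label were grown apart, so p-values measure only the spread between libraries, which may be technical.

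ABC proteins share an ATPase domain, and most use ATP to move a substrate across a membrane. Subfamily A and several members of B and G move sterols, phospholipids and sphingolipids, whereas ABCB1, ABCG2 and much of subfamily C expel drugs and conjugates and are known for drug resistance in tumours. SPNS2 itself, a carrier outside the ABC family, exports sphingosine 1-phosphate (S1P), and ABCA1, ABCC1 and ABCG2 have each been reported to export S1P as well.

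The libraries held 31353373 to 34125159 assigned reads. SPNS2 had 7381 and 8224 counts in the SPNS2 libraries, against 42 and 47 in the NC libraries. VIM and CD44, both abundant in mesenchymal glioma lines, were high, with CD44 at 366 and 421 CPM (read counts scaled to library size) in the SPNS2 libraries and 335 CPM in both NC libraries. The 7 glioma and neural markers summed to 7204 and 6653 CPM in SPNS2 against 4393 and 5100 CPM in NC, nearly all from VIM (6827 and 6222 CPM in SPNS2, 4041 and 4744 CPM in NC), whereas NES was called lower (10.1 and 10.9 CPM in SPNS2, 17.2 and 20.3 CPM in NC, edgeR adjusted p = 0.024). VIM was called higher (1.49-fold, edgeR adjusted p = 0.021). The astroglial and stem cell markers GFAP, S100B, SOX2 and OLIG2 reached at most 0.238 CPM in any library. Summed levels of 4 endothelial markers were 6.43 and 6.83 CPM in SPNS2 against 4.27 and 5.32 CPM in NC, with PECAM1 called higher (2.10-fold, edgeR adjusted p = 0.046), VWF called lower (6.31-fold, 0.046) and CDH5 and TEK at no counts in SPNS2 and at most 4 in NC. Those of 4 epithelial markers were 0.552 and 0.51 CPM in SPNS2 against 3.12 and 2.85 CPM in NC, mostly KRT14 in NC, which was called lower (edgeR adjusted p = 0.021). Those of 3 neuronal markers were 10.3 and 15.6 CPM in SPNS2 against 19.9 and 17.7 CPM in NC, with SYT1 called lower (6.2-fold, edgeR adjusted p = 0.0027), SNAP25 called higher (3.67-fold, 0.04) and RBFOX3 at no counts. The 4 immune markers summed to 76.7 and 66.5 CPM in SPNS2 against 130 and 111 CPM in NC, nearly all from CD68, also a lysosomal protein, while the leukocyte marker PTPRC did not pass 0.297 CPM and AIF1 had no counts. CD68 was called lower (1.69-fold, edgeR adjusted p = 0.02). CD14 had 17 and 21 counts in SPNS2 and 8 and 0 in NC and was not called (edgeR adjusted p = 0.27). The 3 liver markers had no counts in SPNS2 and summed to 0 and 0.327 CPM in NC. The part of these differences in the results was not tested, and in bulk RNA fewer cells of a kind and less RNA per cell cannot be told apart.

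Members of the ABC family moved in both directions in the SPNS2 cells. Of the 46 genes, 31 passed the low-count filter, and 7 of these rose, 9 fell and 15 were not called by edgeR's quasi-likelihood test at an adjusted p under 0.05. The called share was 51.6% of the tested members, where 23.4% of the 17853 tested genes were called, 12.1% higher and 11.3% lower. Where the mean level was 10 CPM or more, 12 of 21 members were called, beside 29.7% of all such genes. The median log2 fold change of the tested members was -0.08, and that of all tested genes -0.0085. The libraries of the groups did not overlap for 28 of 31 members, beside 66% of all tested genes. Calls with at least a 2-fold change were made for 7 members, beside 9.9% of all tested genes. These 7 include ABCA8, ABCB11 and ABCC6, which entered the test only through their level in NC, so that their falls are no separate evidence. ABCA8, ABCB1, ABCB11 and ABCC6 passed the filter through the NC libraries alone, and without them and ABCA12, whose libraries were mixed, 7 of 26 members rose and 6 fell. With any library left out, 1 member was called higher, ABCG2, and the members called lower numbered 6 and 4 (SPNS2 library 1 and 2 left out) and 3 and 2 (NC library 1 and 2 left out).

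**Figure D1:**
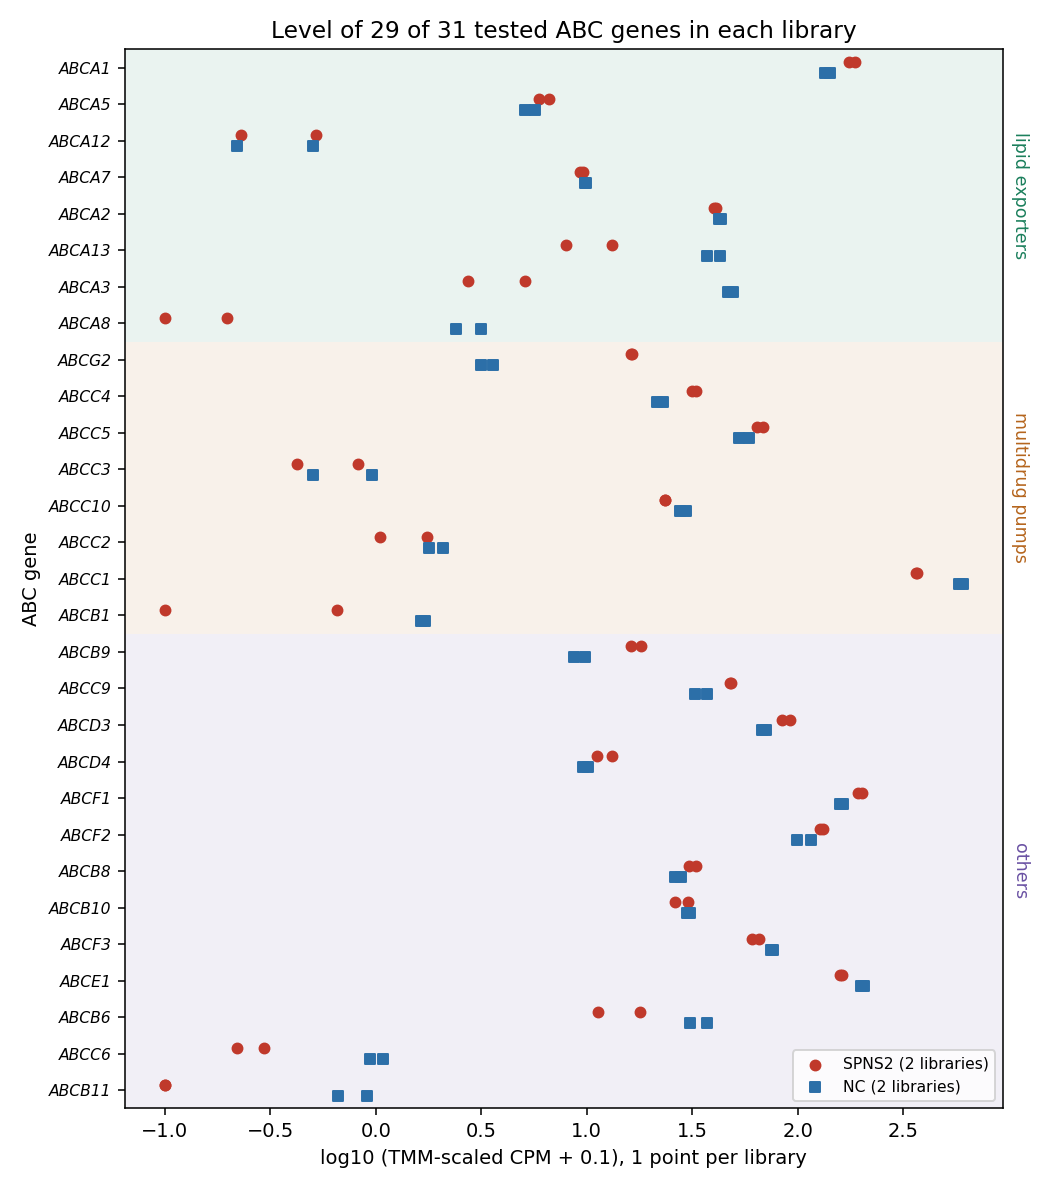
TMM-scaled CPM of 29 of the 31 tested ABC genes on a log10 axis after adding 0.1, with 1 point per library, SPNS2 as circles above NC as squares. Genes are grouped by class and ordered by fold change, and the points of ABCG2 and ABCA3 lie far apart between the groups whereas those of ABCA12 and ABCC3 are mixed.

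Each class held members that rose and members that fell, and no test was made of one class against another. Of 8 tested lipid exporters, 1 rose, 3 fell and 4 were not called, with a median log2 fold change of -0.07. Of 8 tested multidrug pumps, 2 rose, 1 fell and 5 were not called, with a median of -0.28. Of 15 tested others, 4 rose, 5 fell and 6 were not called, with a median of 0.19. Over all tested genes, 12.1% were called higher and 11.3% lower. The falls include ABCA8 among the lipid exporters and ABCB11 and ABCC6 among the others. These, and ABCB1 among the pumps not called, entered the test only through their level in NC, so their values are no separate evidence. The 3 calls that held in each of the 14 alternative analyses were ABCG2, ABCC1 and ABCA3.

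**Figure D2:**
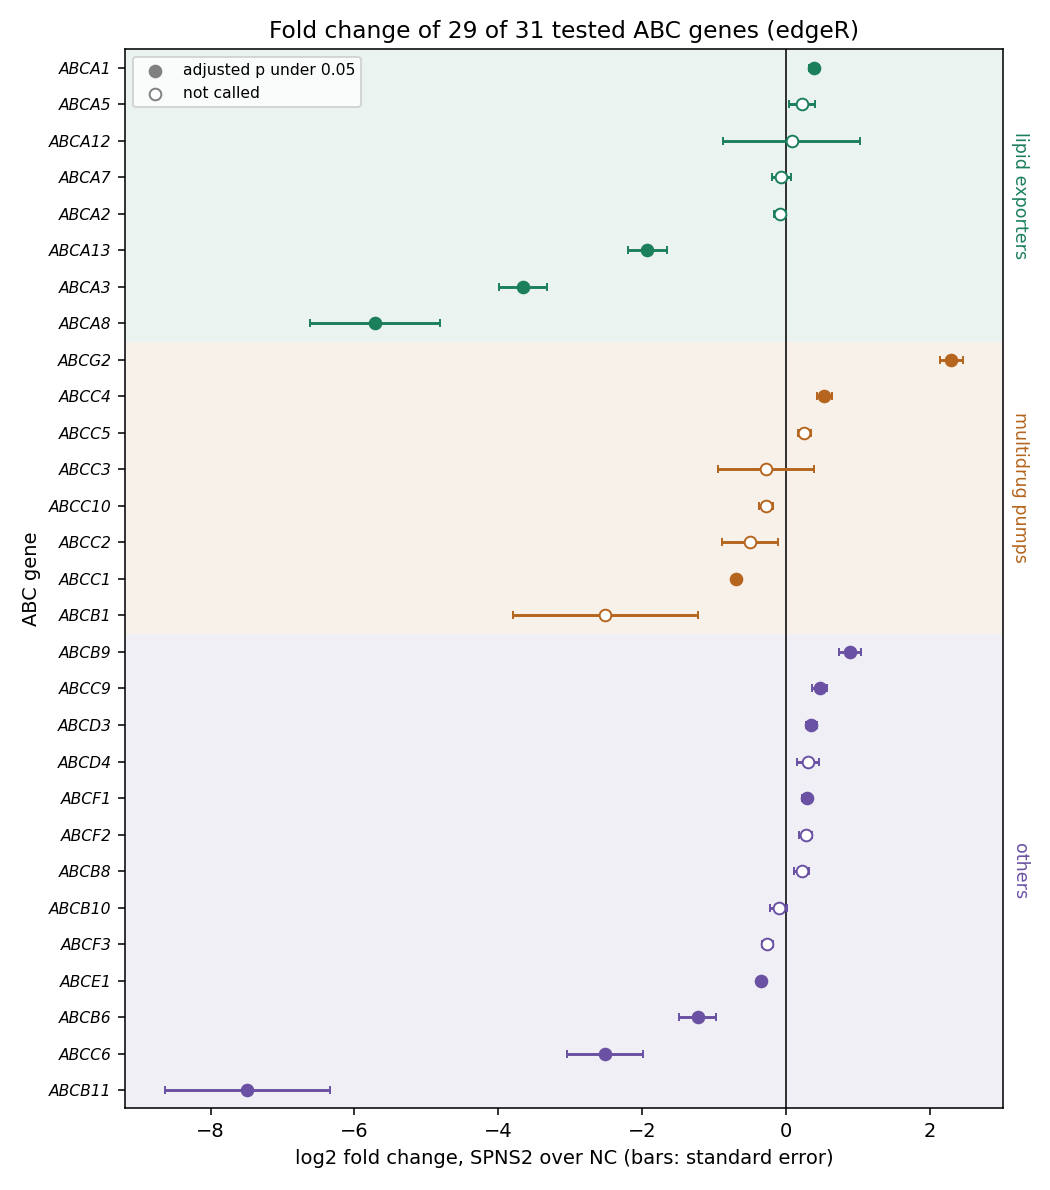
Log2 fold change of SPNS2 over NC for 29 of the 31 tested ABC genes with the standard error of the edgeR fit, filled where the adjusted p was under 0.05. ABCG2 has the highest value, 2.30, and ABCB11, with no counts in SPNS2, the lowest fitted value, -7.49.

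Among the lipid exporters, ABCA1 rose and ABCA3, ABCA13 and ABCA8 fell. ABCA1, which loads cholesterol and phospholipid onto apolipoprotein A-I, was at 187 and 175 CPM in the SPNS2 libraries, against 142 and 134 CPM in the NC libraries. The groups did not overlap, and the rise was 1.31-fold (log2 fold change 0.39, SE 0.069, edgeR adjusted p = 0.024). It was the 1 lipid exporter called higher, but leaving out SPNS2 library 1, SPNS2 library 2, NC library 1 and NC library 2 in turn (the order used throughout) gave adjusted p-values of 0.0793, 0.0573, 0.074 and 0.107.

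ABCA3, which packs surfactant phospholipid into lamellar bodies in lung, had 2.63 and 4.98 CPM in the SPNS2 libraries, against 46.8 and 49.2 CPM in the NC libraries. Both SPNS2 libraries lay far below both NC libraries, a 12.6-fold fall (log2 fold change -3.65, SE 0.33, edgeR adjusted p = 0.0053). ABCA13, one of the longest ABC proteins, was at 7.89 and 13 CPM in SPNS2 and 36.8 and 42.8 CPM in NC. It fell 3.8-fold (log2 fold change -1.93, SE 0.27, edgeR adjusted p = 0.015), with the groups apart, and leaving out NC library 2 gave an adjusted p of 0.0611.

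ABCA8, a cholesterol exporter of a chromosome 17 cluster with ABCA5, ABCA6, ABCA9 and ABCA10, was counted 3 and 0 times in the SPNS2 libraries, against 98 and 77 times in the NC libraries. The ratio of NC to SPNS2 was 56.9 (95% counting interval 19.2 to 279, edgeR adjusted p = 0.019), and leaving out NC library 1 or NC library 2 ended the call (adjusted p = 0.0752 and 0.0606). No other gene of the cluster was called. ABCA5, a lysosomal and endosomal member 288919 bases away, was at 5.81 and 6.53 CPM in SPNS2 against 4.99 and 5.56 CPM in NC (log2 fold change 0.23, SE 0.18, edgeR adjusted p = 0.43), and ABCA6, ABCA9 and ABCA10 had at most 12 counts in any library.

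The other 4 tested lipid exporters, ABCA12 among them, were not called. ABCA2, a lysosomal lipid carrier of brain, was at 40.7 and 39.9 CPM in SPNS2 and 43.2 and 42 CPM in NC. ABCA7, a phospholipid carrier, was at 9.52 and 9.14 CPM in SPNS2 and 9.67 and 9.81 CPM in NC. Their log2 fold changes were -0.08 (SE 0.08) and -0.06 (SE 0.14), with edgeR adjusted p-values of 0.53 and 0.79. ABCG1, a sterol exporter that works beside ABCA1 in macrophages, was barely transcribed, with 2 and 2 counts in SPNS2 and 1 and 0 in NC. ABCG5 and ABCG8, the paired sterol exporters of gut and liver, had no counts in any library, and a count of 0 allows up to 3 counts in a library.

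The multidrug pumps held the highest riser and the most abundant ABC gene. ABCG2, the breast cancer resistance protein, was at 16.2 and 16.1 CPM in the SPNS2 libraries, against 3.49 and 3.06 CPM in the NC libraries. The SPNS2 libraries were nearly equal and lay far above both NC libraries, a 4.93-fold rise (log2 fold change 2.30, SE 0.16, edgeR adjusted p = 0.0031). With 1 library left out the log2 fold change lay between 2.21 and 2.40, and the call held each time. ABCG2 lies on 4q (chromosome 4, 88090264 to 88231322, GRCh38), an arm whose 436 tested genes had a median of -0.32, so that it rose against the trend of its arm.

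ABCC1, multidrug resistance protein 1, which exports glutathione conjugates and leukotriene C4, moved the other way. It had 369 and 364 CPM in SPNS2 and 605 and 579 CPM in NC, with the groups well apart. The fall was 1.62-fold (log2 fold change -0.69, SE 0.049, edgeR adjusted p = 0.0033), and it stayed between -0.73 and -0.66 with 1 library left out. ABCC6, 5854 bases further along chromosome 16 and read from the opposite strand, also fell. It is known for ATP release from liver and is counted here among the others, with 6 and 4 counts in SPNS2 against 27 and 33 in NC (log2 fold change -2.51, SE 0.53, edgeR adjusted p = 0.037). Its partial copies ABCC6P1 and ABCC6P2 could take or give reads, and the 3 together were at 1.3 and 1.2 CPM in SPNS2 and 2.15 and 2.82 CPM in NC. With each library left out in turn, ABCC6 was not called (adjusted p = 0.105, 0.142, 0.161 and 0.197).

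ABCC4, which exports cyclic nucleotides and prostaglandins, was at 31.3 and 33 CPM in SPNS2 and 22.9 and 21.5 CPM in NC. It rose 1.45-fold without overlap (log2 fold change 0.53, SE 0.1, edgeR adjusted p = 0.029), a call that leaving out any library ended (adjusted p = 0.0764, 0.105, 0.0859 and 0.114). ABCB1, P-glycoprotein, the classical drug pump, was low: it had 17 and 0 counts in SPNS2 against 49 and 54 in NC. The SPNS2 libraries disagreed with each other, and the log2 fold change of -2.51 (SE 1.3) was not called (edgeR adjusted p = 0.23), although it was called with SPNS2 library 1 left out (adjusted p = 0.0269), which leaves a single SPNS2 library with no counts. RUNDC3B, which overlaps ABCB1 on the other strand, had 0 and 3 counts in SPNS2 and 43 and 28 in NC, and no source used here says whether counting used strand. ABCC5, ABCC10, ABCC2 and ABCC3 were not called, with log2 fold changes from -0.50 to 0.25, and ABCB5 and ABCC11 had at most 22 counts in any library.

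Promoter sequences are shown for the gene with the strongest rise, for the lipid exporter that rose and for the 2 well-expressed lipid exporters that fell most, so that genes that rose stand beside genes that fell. Each runs 5′ to 3′ on the strand of the gene, from 250 bases before the RefSeq start to 50 bases after it (RefSeq, GRCh38.p14): ABCG2 at chr4:88231577-88231876 (minus strand), ABCA1 at chr9:104928106-104928405 (minus), ABCA3 at chr16:2340679-2340978 (minus) and ABCA13 at chr7:48171208-48171507 (plus). Capitals mark matches on either strand to the TATA box TATAAA, the GC box GGGCGG, the E-box CACGTG, the NRF2-type antioxidant element TGACNNNGC and the AHR-type core GCGTG.
ABCG2: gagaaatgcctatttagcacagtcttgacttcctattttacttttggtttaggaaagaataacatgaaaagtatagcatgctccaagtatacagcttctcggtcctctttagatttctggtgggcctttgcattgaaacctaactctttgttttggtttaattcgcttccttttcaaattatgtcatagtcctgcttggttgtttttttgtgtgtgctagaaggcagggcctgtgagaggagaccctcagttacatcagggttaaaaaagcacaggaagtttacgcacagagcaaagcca
ABCA1: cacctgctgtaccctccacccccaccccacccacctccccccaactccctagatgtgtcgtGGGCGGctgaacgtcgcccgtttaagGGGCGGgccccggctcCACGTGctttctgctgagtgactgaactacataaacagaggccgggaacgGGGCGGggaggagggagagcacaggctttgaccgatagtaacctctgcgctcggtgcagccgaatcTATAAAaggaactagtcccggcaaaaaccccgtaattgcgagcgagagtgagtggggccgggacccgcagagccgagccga
ABCA3: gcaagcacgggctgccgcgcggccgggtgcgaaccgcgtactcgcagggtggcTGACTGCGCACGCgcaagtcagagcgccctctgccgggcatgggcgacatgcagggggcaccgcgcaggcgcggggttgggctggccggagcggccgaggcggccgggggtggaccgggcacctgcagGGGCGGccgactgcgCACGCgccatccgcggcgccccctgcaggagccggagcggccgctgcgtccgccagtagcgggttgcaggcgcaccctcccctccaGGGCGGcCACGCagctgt
ABCA13: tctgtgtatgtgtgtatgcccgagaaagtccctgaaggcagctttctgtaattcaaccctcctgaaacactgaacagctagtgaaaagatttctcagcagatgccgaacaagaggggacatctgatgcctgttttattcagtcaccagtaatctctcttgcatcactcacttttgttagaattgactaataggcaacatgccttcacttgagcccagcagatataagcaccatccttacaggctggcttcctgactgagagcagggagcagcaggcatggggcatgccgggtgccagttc

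These 4 windows differ in base composition, and genes that fell are found at both ends. The ABCG2 and ABCA13 windows have 3 CpG dinucleotides each and a GC content of 40.3% and 48.3%, with none of the 5 motifs. The ABCG2 window begins at 88231577, wholly upstream of the start at 88231322 in the GENCODE annotation used for gene positions. Its composition and lack of motifs therefore describe that RefSeq start only, and the sequence around the GENCODE start was not examined. ABCA1 has 23 CpGs, 3 GC boxes, an E-box and a TATA box that begins 31 bases before the start. ABCA3 has 42 CpGs and a GC content of 78%, 2 GC boxes, an antioxidant element and 3 AHR-type cores, the first sharing a base with the antioxidant element. Over the 35 members with a RefSeq window, 7 held the antioxidant element (20%, against 13.3% of 35116 promoters) and 13 the AHR-type core (37.1% against 36.5%). The TATA box was in 5 of 35 (14.3% against 11.5%), the GC box in 18 (51.4% against 45%) and the E-box in 4 (11.4% against 7.26%). CpGs numbered 24 at the median in the 7 members that rose, 24 in the 6 that fell, 24 in the 13 not called and 5 in the 9 not tested, against 14 over all promoters. The CCAAT box (CCAAT, not capitalised here) was in 6 (17.1% against 34.6%). The LXR-type DR4 repeat, a pair of AGGTCA elements, was in no member window and in 0.0199% of all promoters, and a missing match says only that these letters are not in the window.

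The genes outside lipid and drug export were the most abundant as a group. Per kilobase of exon, they made up 63.4% and 64.1% of the summed level of the 46 members in the SPNS2 libraries and 55.6% and 56.7% in the NC libraries. The 4 ATPases among them that do not span a membrane alone made up 46.6% and 47.2% in SPNS2 and 39.9% and 41.5% in NC. The summed level of the others overlapped between groups, at 150.6 and 154.1 CPM per kilobase in SPNS2 and 147.5 and 150.6 in NC. That of all 46 members was 237 and 240 CPM per kilobase in SPNS2 and 265 and 266 in NC. Multidrug pumps made up 27.1% and 26.7% in SPNS2 and 34.6% and 33.5% in NC, and lipid exporters 9.47% and 9.12% in SPNS2 and 9.86% and 9.74% in NC. ABCC1 alone was 20.5% and 20% of the sum in SPNS2, against 30.1% and 28.8% in NC. Without ABCC1, the multidrug pumps summed to 15.6 and 16.2 CPM per kilobase in SPNS2 and 11.9 and 12.5 CPM per kilobase in NC. These sums carry no test.

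**Figure D3:**
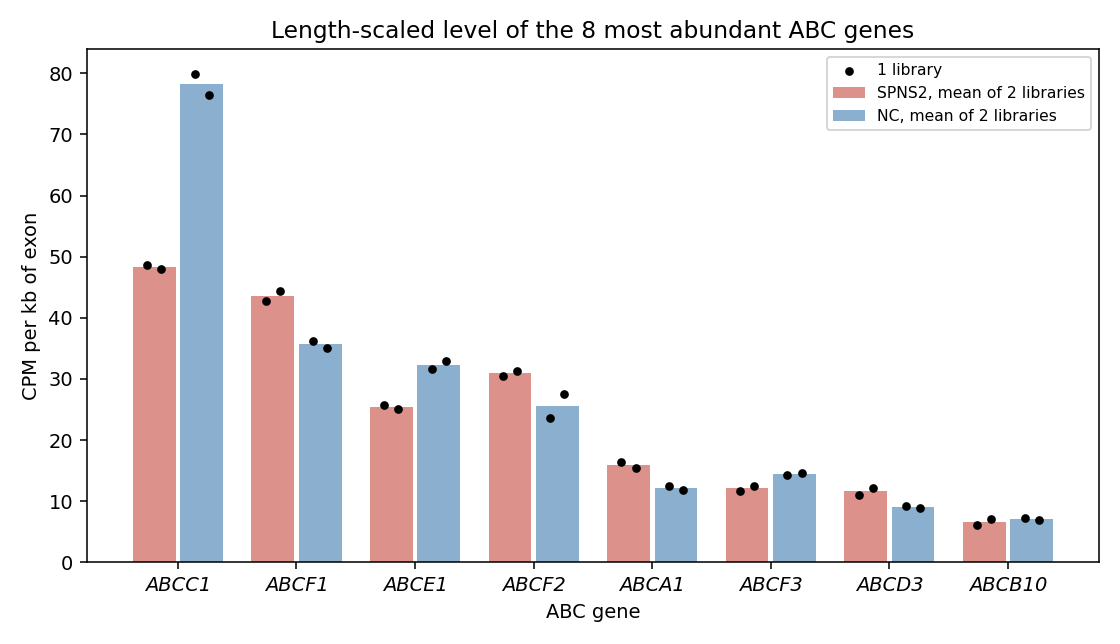
Level per kilobase of exon (CPM per kb) of the 8 most abundant of the 46 members, with bars at the mean of 2 libraries, points for single libraries, and SPNS2 left of NC. ABCC1 stood at 48.4 in SPNS2 and 78.2 in NC, and ABCF1 at 43.6 in SPNS2 and 35.7 in NC.

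By length-scaled level, ABCC1 ranked first in both groups with the summed exon length, and ABCF1 ranked first in SPNS2 with the length of the longest transcript. The soluble ATPases ABCF1, ABCE1, ABCF2 and ABCF3 followed it within the first 6 places in either group. ABCF1, which binds the initiation factor eIF2, was at 193 and 201 CPM in SPNS2 against 164 and 159 CPM in NC, a 1.22-fold rise without overlap (log2 fold change 0.29, SE 0.058, edgeR adjusted p = 0.033). ABCE1, which splits ribosomes after termination, was at 162 and 158 CPM in SPNS2 and 199 and 207 CPM in NC, a 1.27-fold fall (log2 fold change -0.35, SE 0.058, edgeR adjusted p = 0.021). OTUD4 overlaps ABCE1 on the other strand and was at 79.5 and 85.3 CPM in SPNS2 and 99.8 and 95.2 CPM in NC. Reads from their overlap cannot be told apart if strand was not used. ABCE1 lies on 4q, whose median was -0.32, and with arm medians removed its adjusted p was 0.815. ABCF2 (127 and 131 CPM in SPNS2, 98.6 and 115 CPM in NC) and ABCF3 (60.7 and 65.3 CPM in SPNS2, 74.6 and 76.1 CPM in NC) were not called (edgeR adjusted p = 0.11 and 0.07). With each library left out in turn neither ABCF1 (adjusted p = 0.0749, 0.114, 0.11 and 0.143) nor ABCE1 (0.0742, 0.0851, 0.0742 and 0.0972) was called.

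Of the 4 mitochondrial members, 1 fell and 3 were not called. ABCB6, a porphyrin carrier, was at 17.8 and 11.2 CPM in SPNS2, against 37.1 and 30.8 CPM in NC, a 2.34-fold fall (log2 fold change -1.23, SE 0.26, edgeR adjusted p = 0.037). AC068946.2 overlaps it on the same strand, and the sum of both was 18.9 and 14.4 CPM in SPNS2 and 38.2 and 37.6 CPM in NC. The call ended when SPNS2 library 2 (adjusted p = 0.0617), NC library 1 (0.127) or NC library 2 (0.0879) was left out, and with arm medians removed (0.0563). ABCB8 and ABCB10, which lie in the inner membrane, were between 26.1 and 32.6 CPM in every library, with log2 fold changes from -0.10 to 0.22.

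Among the peroxisomal members, ABCD3 rose. ABCD3, which carries branched-chain fatty acids and bile acid intermediates, was at 84.2 and 92.1 CPM in SPNS2 and 70.4 and 67.4 CPM in NC, a 1.28-fold rise (log2 fold change 0.36, SE 0.077, edgeR adjusted p = 0.04). The groups did not overlap, but with each library left out in turn ABCD3 was not called (adjusted p = 0.0671, 0.135, 0.117 and 0.154). ABCD2 had at most 10 counts in any library, and the lysosomal cobalamin carrier ABCD4 was not called (13 and 11.1 CPM in SPNS2, 10 and 9.45 CPM in NC, edgeR adjusted p = 0.22).

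ABCB9, a lysosomal peptide carrier, and ABCC9, the SUR2 subunit of ATP-sensitive potassium channels, rose. ABCB9 was at 16 and 18 CPM in SPNS2 and 9.73 and 8.62 CPM in NC, 1.85-fold higher (log2 fold change 0.89, SE 0.15, edgeR adjusted p = 0.021). ARL6IP4 overlaps it on the other strand and was at 38.2 and 39 CPM in SPNS2 and 24 and 21.8 CPM in NC, so reads of the pair cannot be told apart if strand was not used. ABCC9 was at 47.6 and 48.3 CPM in SPNS2 and 36.9 and 32.5 CPM in NC, 1.38-fold higher (log2 fold change 0.47, SE 0.1, edgeR adjusted p = 0.038). KCNJ8, the pore subunit that pairs with SUR2, was at 6.4 and 5.57 CPM in SPNS2 and 3.46 and 2.97 CPM in NC, 1.86-fold higher (edgeR adjusted p = 0.044), while KCNJ11 had no counts and ABCC8 1 count in all. With each library left out in turn the adjusted p was 0.0533, 0.0836, 0.0665 and 0.0934 for ABCB9, 0.109, 0.121, 0.0683 and 0.12 for ABCC9, and 0.139, 0.0939, 0.109 and 0.157 for KCNJ8. ABCB11, the bile salt export pump of liver, had no counts in SPNS2 against 26 and 19 in NC, at least 14.6-fold lower with 3 counts over the group taken as the floor (edgeR adjusted p = 0.029). The liver marker ALB had no counts in any library. ABCB11 too was not called with any library left out (adjusted p = 0.0752, 0.0774, 0.173 and 0.127).

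**Figure D4:**
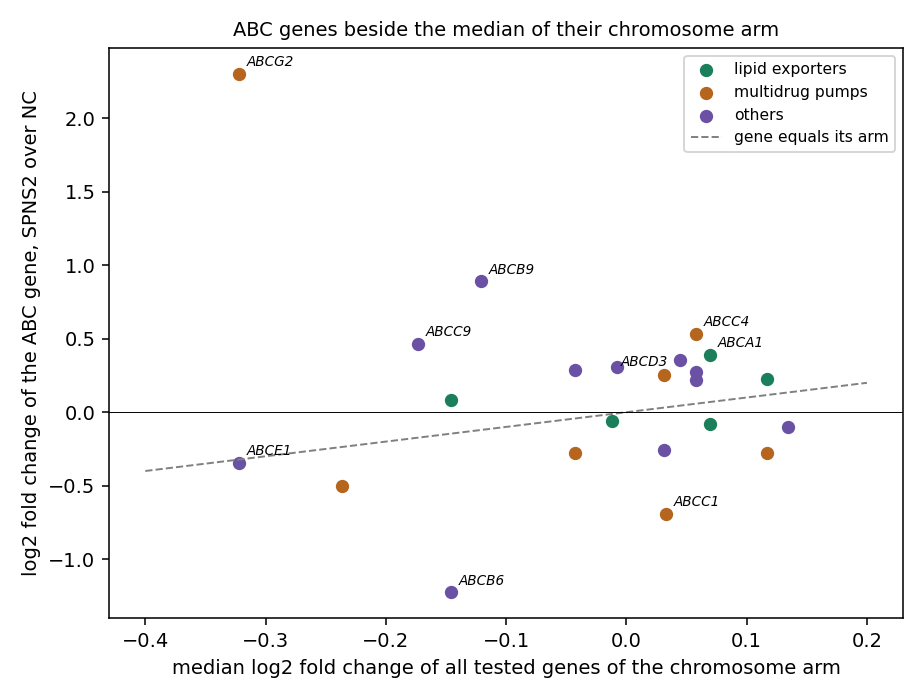
Log2 fold change of 23 tested ABC genes (vertical) against the median log2 fold change of all tested genes on the same chromosome arm (horizontal), with a dashed line where both are equal; 6 genes below -1.6 are not drawn. ABCE1 lies on the line at an arm median of -0.32, and ABCG2, on the same arm, lies far above it.

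Medians of whole chromosome arms differed, with 5q at 0.43 and 11q at -0.39, so members were set beside their arm. With arm medians removed, 6 of 31 members were called higher and 7 lower, beside 18.4% of all tested genes. The 7 include ABCA8, ABCB11 and ABCC6, which entered the test only through their level in NC. ABCE1, ABCB6 and ABCD3 were the 3 members that lost the call, ABCD3 with an adjusted p of 0.0607. ABCG2, ABCC1, ABCA3 and ABCA13 kept theirs, with adjusted p-values of 0.0026, 0.0033, 0.006 and 0.016.

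The reported S1P exporters can be read side by side per kilobase of exon. SPNS2 was at 58.3 and 60 CPM per kilobase in the SPNS2 libraries, vector and endogenous transcripts together and over the annotated gene length, and at 0.329 CPM per kilobase on average in NC. ABCC1 was at 48.7 and 48 CPM per kilobase in SPNS2 and 79.9 and 76.5 in NC. ABCA1 was at 16.5 and 15.4 CPM per kilobase in SPNS2 and 12.5 and 11.8 in NC, and ABCG2 at 3.22 and 3.19 in SPNS2 and 0.693 and 0.607 in NC. The most abundant of the 3 ABC carriers was the one that fell, while the others rose. The call of ABCG2 held in every alternative analysis, whereas that of ABCA1 did not. MFSD2B, the S1P exporter of red cells and platelets, was at 2.92 and 1.77 CPM in SPNS2 and 1.65 and 2.88 CPM in NC (edgeR adjusted p = 0.95).

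Genes of pathways that control or work beside the ABC transporters were counted in 5 lists. In the list of LXR receptors, their targets and cholesterol efflux, 1 of 19 tested genes rose and 4 fell, a called share of 26.3% beside 23.4% of all tested genes. The sterol esterifying enzyme SOAT1 was at 275 ± 18.8 CPM in SPNS2 and 222 ± 4.5 CPM in NC (SD, n = 2 each, edgeR adjusted p = 0.043), and the LXR target SMPDL3A fell 2.06-fold (edgeR adjusted p = 0.019). PLTP, of the same list, fell 1.66-fold (edgeR adjusted p = 0.03, and 0.03 with arm medians removed). The LXR gene NR1H2 (edgeR adjusted p = 0.66) and the LXR targets MYLIP and LPCAT3 (0.94 and 0.95) were not called. With SPNS2 library 2, NC library 1 or NC library 2 left out, SOAT1 (adjusted p = 0.116, 0.131 and 0.165) and SMPDL3A (0.0568, 0.0817 and 0.0722) were no longer called, and SOAT1 was not called with arm medians removed either (0.164). The list had 1 to 4 called genes with a library left out.

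In the list of genes tied to NRF2 and AHR, factors that induce several drug pumps, 1 of 18 tested genes rose and 5 fell. The called share was 33.3% beside 23.4% of all tested genes. The NRF2 gene NFE2L2 fell 1.66-fold (edgeR adjusted p = 0.04) but was not called with arm medians removed (0.0745). AHR was not called (edgeR adjusted p = 0.65). CYP1A1, the classical AHR target, rose to 83 ± 6.83 CPM in SPNS2, against 23.9 ± 1.91 CPM in NC (SD, n = 2 each, edgeR adjusted p = 0.0026), whereas CYP1B1, another AHR target, fell to 9.56 ± 1.4 CPM in SPNS2, against 32.5 ± 0.103 CPM in NC (edgeR adjusted p = 0.0043). SLC7A11, the cystine carrier that feeds glutathione synthesis, fell 4.69-fold, to 146 ± 21.8 CPM in SPNS2, against 684 ± 3.01 CPM in NC (edgeR adjusted p = 0.002). The pregnane receptor gene NR1I2 had no counts in any library.

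In the peroxisome list, 2 of 22 genes rose and 1 fell, a called share of 13.6% beside 23.4% of all tested genes. PEX2, an import ubiquitin ligase, rose 2.67-fold to 40.9 ± 0.231 CPM in SPNS2, against 15.3 ± 0.852 CPM in NC (SD, n = 2 each, edgeR adjusted p = 0.0033), HSD17B4 rose 1.21-fold (0.038) and AMACR fell 1.51-fold (0.039). In the iron-sulphur and heme list, 3 of 24 rose and 1 fell (16.7% called), among them the mitochondrial iron carrier SLC25A37 (1.47-fold higher, edgeR adjusted p = 0.017), ISCA2 (1.57-fold higher, 0.045) and the scaffold ISCU (1.35-fold lower, 0.044). HSD17B4, AMACR, ISCA2 and ISCU lost the call with any library left out, with adjusted p-values between 0.0505 (ISCU, NC library 2 left out) and 0.157 (ISCA2, NC library 1 left out). SLC25A37 lost it with SPNS2 library 2 (0.0623), NC library 1 (0.0761) or NC library 2 (0.0549) left out. With arm medians removed HSD17B4 (0.133), ISCA2 (0.0505) and ISCU (0.102) were not called. With a library left out the peroxisome list had 1 to 3 called genes and the iron-sulphur and heme list 0 to 1.

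The list of genes for ribosome termination, rescue and related steps holds more than the partners of ABCE1. In it, 7 of 16 were called higher and 0 lower, with 9 not called. The share of 43.8% stood beside 12.1% of all tested genes called higher, and fewer of the list were called with any library left out. The release factor genes ETF1 and GSPT2 rose 1.56-fold and 2.06-fold (edgeR adjusted p = 0.0042 and 0.0092). GSPT1, the far more abundant gene of the same release factor as GSPT2, was not called (448 and 439 CPM in SPNS2, 378 and 472 CPM in NC, edgeR adjusted p = 0.75). ETF1 lies on 5q, an arm with a median of 0.43, and its adjusted p was 0.0585 with arm medians removed. PELO, also called higher (edgeR adjusted p = 0.021), lies on 5q too, and its adjusted p was 0.87 with arm medians removed. In that setting 7 genes of the list were called higher and 0 lower. Of the ABC genes whose symbols fall outside the pattern, the peptide carrier TAP1 was at 80 and 73.3 CPM in SPNS2 and 95.7 and 98.1 CPM in NC (log2 fold change -0.34, SE 0.074, edgeR adjusted p = 0.04). TAP1 was not called with any library left out (0.0769, 0.138, 0.125 and 0.143) or with arm medians removed (0.0613). TAP2 was not called (edgeR adjusted p = 0.14), and CFTR had at most 6 counts in any library.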

How the data were processed

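Messenger RNA levels were measured by RNA sequencing in 4 libraries. The authors deposited 1 table of raw, whole-number gene counts. The submitters' processing notes name the build hg38 and the tools featureCounts 0.3, HISAT2 2.2.1 and Trim Galore 0.6.9, without their settings. Which annotation was used, whether strand was used and how multiply matching reads were handled is not given in the sources used here, so reads of overlapping genes and near-identical copies are uncertain. The table held 61806 genes and 1 row without counts, which was left out.

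Genes were filtered by filterByExpr (minimum count 10, minimum total 15), scaled by TMM and compared with edgeR 4.0.16 (R 4.3.3) by its quasi-likelihood test, two-sided, with the group as the only term and Benjamini-Hochberg adjustment over all 17853 tested genes. Standard errors are the fitted log2 fold change over the square root of F. Levels are TMM-scaled CPM. Exon lengths (all exons of a gene merged), positions and overlaps came from GENCODE 29 (GRCh38, the assembly of hg38), by Ensembl identifier. Arms were divided at approximate centromere positions. A fold against a group without counts was taken against 3 counts over the group, and counting intervals are exact (95%) and cover counting error only. The test was checked on simulated counts.

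The members and lists, and the alternatives, were chosen with earlier results of these data known. Per-library values were given for the called members and for ABCA1, ABCC1, ABCG1, ABCG2 and ABCB1 whatever their p. From each further list, up to 2 called genes per direction with the smallest p were given, by mean and SD or by fold change. Other genes named beside them were chosen after their values were seen. A few genes are counted in the totals but not reported here by name. Alternatives were DESeq2 1.42.0, limma-voom (limma 3.58.1), a robust fit, other scaling factors, other filters, a replicate block, arm medians removed and each library left out.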

Additional observations from a re-analysis of the deposited data

How the results depend on the processing

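No called ABC gene changed sign under the 14 alternatives, and 3 of 16 (ABCA3, ABCC1 and ABCG2) were called in all of them. With 1 library left out, which also leaves fewer samples, 10 of 16 lost the call each time. Over these 4 settings all called genes ranged from 1712 to 2144 (4171 in the full fit), ABC genes from 1 to 1 higher (7) and from 2 to 6 lower (9), lipid exporters from 0 to 0 higher (1) and 1 to 3 lower (3), multidrug pumps from 1 to 1 higher (2) and 1 to 2 lower (1), and the others from 0 to 0 higher (4) and 0 to 1 lower (5). The lists ranged from 1 to 4 (LXR, 5), 4 to 6 (NRF2 and AHR, 6), 1 to 3 (peroxisome, 3), 0 to 1 (iron-sulphur and heme, 4) and 3 to 5 (ribosome rescue, 7). ABCA12, ABCC3 and ABCB10, none of them called, changed sign when 1 library was dropped, lying between -0.98 and 1.19, between -0.95 and 0.36, and between -0.20 and 0.013 (log2).

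Deviations of same-numbered libraries from their group means had a correlation of r = -0.05. With 2 libraries in a group the deviations mirror each other, so both pairs give the same value. It cannot tell whether same-numbered libraries shared a culture or a day, which the labels do not say. With the replicate block, 1976 genes were called in all, 1 ABC gene higher and 4 lower, with 0 lipid exporters, 1 multidrug pump and 0 others higher, 1 of the others lower, and 2, 1, 2 and 4 genes of the LXR, peroxisome, iron-sulphur and ribosome lists. Without a low-count filter the others were 2 higher and 3 lower and the LXR, peroxisome and iron-sulphur lists had 3, 1 and 1 calls. With library totals only, 2 of the others were higher, and the call of ABCF1 was lost (adjusted p = 0.0513). With a minimum mean of 1 CPM, 3 of the others were lower because ABCB11 and ABCC6 were not tested. Upper-quartile factors left 2 iron-sulphur calls, and arm medians removed left 3 of the others lower and 1 iron-sulphur call, with HSD17B4 at -0.16. Calls also ended for ABCD3 under upper-quartile factors (0.0539), library totals (0.0552) and no filter (0.0576), and for ABCC9 (0.0518) and ABCC6 (0.0544) with no filter. The cause of the other changes was not tested. By longest transcript in place of merged exons, 24 of 31 levels moved by more than the SD, and ranks by at most 5 places.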
